A study of Mus musculus with 6 samples.

Results

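The AP-1 and immediate early genes Fos, Fosb, Jun, Junb, Jund, Egr1, Ier2, Atf3, Dusp1 and Zfp36 were taken by gene symbol from a table of read counts of mouse bone marrow depleted of lineage-marked cells. The symbols matched 10 of the 33924 genes listed, and all 10 were among the 15708 genes that passed the filter on low counts. The study compared 3 libraries labelled Stag2KO with 3 labelled Stag2WT. Stag2 is part of cohesin, a ring-shaped complex that tethers sister chromatids and forms loops in chromatin. Marrow cells with lineage markers had been pulled out by antibody-coated magnetic beads, and TRIzol was used to extract the RNA. The labels give the genotype alone, with no allele, driver or timing of the deletion and no age. Whether each library of a group stands for its own animal is not stated, so p-values reflect the spread among these samples only, and that spread may be technical.

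Immediate early genes are transcribed soon after a cell receives a growth factor, cytokine or stress signal, before any new protein is made, and their transcripts are short-lived. Fos and Fosb encode Fos proteins, and Jun, Junb and Jund encode Jun proteins. The Fos and Jun proteins pair through leucine zippers and bind DNA as the AP-1 factor. Atf3 is a related zipper protein of the stress response, and Egr1 is a zinc finger factor that has been linked to the quiescence of blood stem cells in mice. Dusp1, a phosphatase of MAP kinases, and Zfp36 (tristetraprolin), which speeds the decay of AU-rich cytokine mRNAs, act as brakes on the same signals. Junb and Jund restrain the growth of several cell types, and mice that lack Junb in blood cells develop a myeloproliferative disease.

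Reads assigned to genes numbered 29435651 to 37722325 in the Stag2KO libraries and 33800670 to 36976756 in the Stag2WT libraries. Levels are given as CPM, gene counts scaled to a common library size by the TMM method. Stag2 itself averaged 179.6 ± 9.25 CPM in Stag2KO and 330.2 ± 7.18 CPM in Stag2WT libraries (SD, n = 3 each), so Stag2KO held 54.4% of the Stag2WT level. Of the 7 markers of stem and progenitor cells all were detected, with a summed level of 509 to 606 CPM in Stag2KO and 417 to 491 CPM in Stag2WT. Reads outside annotated genes came to 11.1% to 12.8% in the Stag2KO libraries and 8.81% to 10.1% in the Stag2WT libraries, and their part in the values of the members was not tested. Markers of lineages that the depletion removes were also read, and their levels are given with the gene groups.

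The stretch upstream of the start site carries the elements through which signals reach these genes. RefSeq gave a promoter for 8 of the 10 members in build GRCm38.p6, and the 250 bases before the annotated start were read. Egr1 and Ier2 had no sequence to show. The windows below belong to Fos, Dusp1 and Junb, whose levels varied most closely together among libraries, and to Atf3, whose levels did not follow theirs. They lie at chr12:85473640-85473889 (Fos, plus strand), chr17:26508473-26508722 (Dusp1, minus strand), chr8:84978749-84978998 (Junb, minus strand) and chr1:191183334-191183583 (Atf3, minus strand). Each reads 5′ to 3′ on the strand of its gene and ends at the base before the start. Capitals mark TGACG in either orientation, its palindrome TGACGTCA, and TATAAA.

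Fos: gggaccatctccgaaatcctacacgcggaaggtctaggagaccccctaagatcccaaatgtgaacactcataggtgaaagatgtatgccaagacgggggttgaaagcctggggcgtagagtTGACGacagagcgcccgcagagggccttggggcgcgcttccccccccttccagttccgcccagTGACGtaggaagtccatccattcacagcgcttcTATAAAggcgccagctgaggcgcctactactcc
Dusp1: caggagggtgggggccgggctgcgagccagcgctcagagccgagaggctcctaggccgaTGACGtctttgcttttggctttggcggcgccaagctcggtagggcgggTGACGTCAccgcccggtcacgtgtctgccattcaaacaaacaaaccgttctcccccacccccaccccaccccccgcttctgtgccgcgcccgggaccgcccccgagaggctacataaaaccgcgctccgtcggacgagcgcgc
Junb: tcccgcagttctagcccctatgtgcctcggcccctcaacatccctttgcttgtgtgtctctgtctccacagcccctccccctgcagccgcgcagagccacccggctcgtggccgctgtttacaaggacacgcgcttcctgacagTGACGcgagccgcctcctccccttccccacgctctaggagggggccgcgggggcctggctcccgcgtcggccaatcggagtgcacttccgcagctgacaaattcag
Atf3: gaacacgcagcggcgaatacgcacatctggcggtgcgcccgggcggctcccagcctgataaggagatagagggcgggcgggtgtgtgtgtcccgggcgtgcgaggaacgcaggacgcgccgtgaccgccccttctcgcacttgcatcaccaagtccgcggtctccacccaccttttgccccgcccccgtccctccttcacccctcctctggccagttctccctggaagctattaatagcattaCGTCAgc

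The 5 bases TGACG form the first part of the cyclic AMP response element, TGACGTCA, which is known to bind CREB and ATF proteins. On either strand TGACG stood in 5 of the 8 member windows, against 17.8% of all 32851 RefSeq windows of the same length. In Fos it began 129 and 66 bases before the start, in Fosb 60, in Junb 106 and in Atf3 7 bases before it, the last on the opposite strand. Dusp1 held 3 matches, and those that began 143 and 140 bases before the start were the 2 strands of 1 full TGACGTCA, which 1.55% of all windows hold. The AP-1 consensus TGANTCA was in none of the 8 member windows and in 6.75% of all windows. Variants of the 8 bases TGACGTCA were not searched, and the Jun window holds such a variant, TGACATCA. TATAAA was found in Fos alone, 33 bases before the start, and in 12.4% of all windows. A CArG box, the element known to bind serum response factor, was found in Zfp36 alone, 58 bases before the start, and in 1.47% of all windows. Start sites differed between annotations. The RefSeq start of Jund lies 1210 bases upstream of the outermost GENCODE start, while GENCODE has an outermost start upstream of the RefSeq start by 53656 bases in Dusp1, 34706 in Atf3 and 1025 in Zfp36. Which starts these cells use was not tested, so the windows of these 4 genes may not be the promoters in use. These matches describe letters in a short window and show no binding.

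Jund fell in Stag2KO, and no other member passed the test. With edgeR's quasi-likelihood test and Benjamini-Hochberg adjustment over all genes tested, at an adjusted p under 0.05, 1 member was lower, none was higher and 9 were not called. DESeq2 called 3 members lower and none higher, and limma-voom called 1 lower and none higher. At an unadjusted p under 0.05, 4 members were lower and none higher in the edgeR fit. Over all genes tested, 21.2% were called in either direction, 10.5% were called lower and 10.7% higher, so a call of 1 member in 10 is near the background. Every Stag2KO value lay below every Stag2WT value in 4 members (Jund, Fos, Egr1 and Zfp36), against 21.2% of all genes tested, and in 43.5% of all genes tested the groups stood apart in one direction or the other. The fold change was below 0 in 8 members, and the median log2 fold change of the 10 was -0.57, against 0.01 over all genes tested. Without Stag2WT replicate 2 the median of the members was -0.33.

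**Figure D1:**
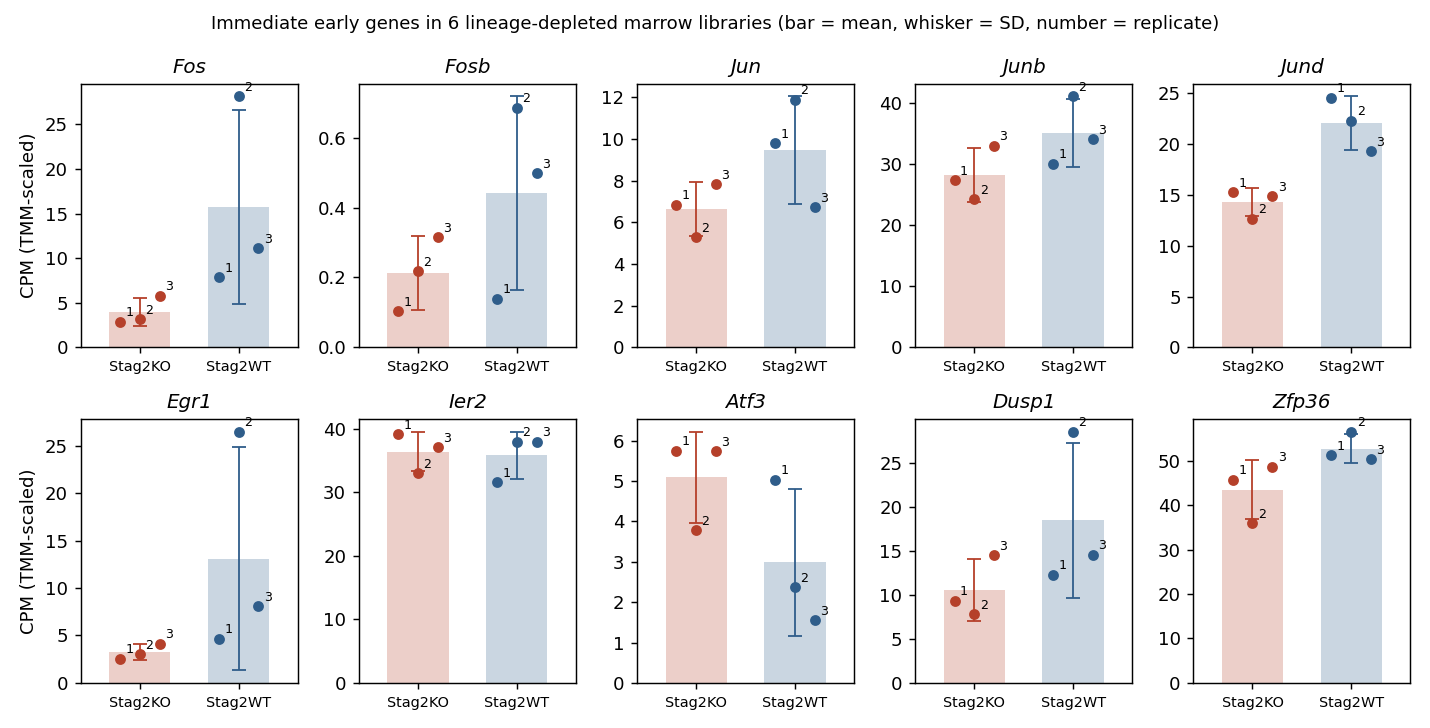
CPM of the 10 members in each library, with Stag2KO at the left and Stag2WT at the right of each panel (bars, means; whiskers, SD; n = 3 each; numbers, replicates). Jund separates the groups with a narrow spread, whereas the Stag2WT means of Fos and Egr1 rest largely on replicate 2, at 28.2 and 26.5 CPM.

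Among the Jun genes, Jund, which is present in resting cells more steadily than its relatives, read 15.2, 12.7 and 14.9 CPM in Stag2KO replicates 1, 2 and 3 and 24.6, 22.3 and 19.3 CPM in Stag2WT replicates 1, 2 and 3. The groups did not overlap: the lowest Stag2WT library, replicate 3, stood above the highest Stag2KO library, replicate 1. Mean levels were 14.3 ± 1.38 CPM in Stag2KO and 22.1 ± 2.66 CPM in Stag2WT (SD, n = 3 each), or 64.7% of Stag2WT. The log2 fold change was -0.63 (SE 0.12, 95% interval -0.91 to -0.35, adjusted p = 0.0109, edgeR). Jund was called lower under all 13 alternative settings, with log2 fold changes of -0.72 to -0.54 and adjusted p-values of 8.41e-05 to 0.0373 over edgeR, DESeq2 and limma-voom. Its exons overlap a predicted gene on the opposite strand, Gm11175, for which no reads were counted in any library.

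Jun, the founding partner of Fos, read 6.85, 5.28 and 7.83 CPM in Stag2KO and 9.79, 11.9 and 6.73 CPM in Stag2WT. Stag2WT replicate 3 lay below 2 of the 3 Stag2KO libraries, so the groups overlapped. The log2 fold change of Jun was -0.51 (SE 0.23, 95% interval -1.04 to 0.02, adjusted p = 0.147, edgeR). Junb read 27.3, 24.3 and 33.0 CPM in Stag2KO and 30.0, 41.1 and 34.1 CPM in Stag2WT. Stag2KO replicate 3 stood above Stag2WT replicate 1, and the log2 fold change was -0.31 (SE 0.15, 95% interval -0.65 to 0.02, adjusted p = 0.158, edgeR). Exons of Junb overlap those of Prdx2 and exons of Jun those of Junos, both on the opposite strand. The sources used here do not say whether counting used strand. Reads in such overlaps may have been counted with these genes or set aside as ambiguous, which was not tested. Prdx2, a peroxide-removing enzyme abundant in red cells, had a log2 fold change of -0.63 (adjusted p = 0.058, edgeR).

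Of the Fos genes, Fos read 2.88, 3.19 and 5.79 CPM in Stag2KO and 7.87, 28.2 and 11.1 CPM in Stag2WT, from 84, 117 and 221 reads in Stag2KO and 283, 986 and 381 reads in Stag2WT. Every Stag2KO library lay below every Stag2WT library, and Stag2WT replicate 2 stood far above the other 2 of its group. Means were 3.95 ± 1.6 CPM in Stag2KO and 15.7 ± 10.9 CPM in Stag2WT (SD, n = 3 each), or 25.1% of Stag2WT. The log2 fold change was -1.99 (SE 0.58, 95% interval -3.45 to -0.52), with an unadjusted p of 0.0168 and an adjusted p of 0.0668 in the edgeR fit, which misses the threshold. Without Stag2WT replicate 2 it was -1.26 (adjusted p = 0.0603), and without Stag2WT replicate 1 it was -2.31 and passed (adjusted p = 0.0436). DESeq2 called Fos lower (adjusted p = 0.00904), as did edgeR without robust dispersion (adjusted p = 0.0307). Over the 13 alternatives the adjusted p of Fos ran from 0.00904 to 0.184.

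Fosb was near the limit of detection. It had 3, 8 and 12 reads in Stag2KO and 5, 24 and 17 reads in Stag2WT, or 0.103, 0.218 and 0.314 CPM in Stag2KO and 0.139, 0.685 and 0.497 CPM in Stag2WT. The groups overlapped, and the log2 fold change of -1.0 had a 95% interval of -2.37 to 0.38 (SE 0.60, adjusted p = 0.263, edgeR).

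Egr1 resembled Fos. It read 2.54, 3.0 and 4.14 CPM in Stag2KO and 4.67, 26.5 and 8.08 CPM in Stag2WT. The groups did not overlap, though Stag2KO replicate 3 and Stag2WT replicate 1 lay close together and Stag2WT replicate 2 was the highest by a wide margin. Means were 3.22 ± 0.825 CPM in Stag2KO and 13.1 ± 11.7 CPM in Stag2WT (SD, n = 3 each). The log2 fold change was -2.01 (SE 0.72, 95% interval -3.85 to -0.17, unadjusted p = 0.0372, adjusted p = 0.111, edgeR). It was -0.98 without Stag2WT replicate 2 (adjusted p = 0.0807) and -2.42 without Stag2WT replicate 1 (adjusted p = 0.0462). DESeq2 called Egr1 lower (adjusted p = 0.0298), and over 12 alternatives the adjusted p ran from 0.0298 to 0.265.

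Ier2, a small nuclear immediate early protein, read 39.1, 33.0 and 37.0 CPM in Stag2KO and 31.5, 37.9 and 37.9 CPM in Stag2WT. The groups lay over each other, and the log2 fold change was 0.02 with a 95% interval of -0.21 to 0.26 (SE 0.10, adjusted p = 0.887, edgeR). Atf3 was the member with the highest fold change. It read 5.76, 3.78 and 5.74 CPM in Stag2KO and 5.04, 2.37 and 1.55 CPM in Stag2WT. Stag2WT replicate 1 stood within the Stag2KO values, and the other 2 Stag2WT libraries below them. The log2 fold change of Atf3 was 0.77 (SE 0.42, 95% interval -0.23 to 1.76, adjusted p = 0.23, edgeR). Without Stag2WT replicate 1 it was 1.37 and passed the threshold (adjusted p = 0.0219), and over 12 alternatives the adjusted p ran from 0.0219 to 0.457.

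The 2 brakes differed in their spread. Dusp1 read 9.32, 7.81 and 14.5 CPM in Stag2KO and 12.3, 28.6 and 14.5 CPM in Stag2WT. Stag2KO replicate 3 reached the level of Stag2WT replicate 3, and Stag2WT replicate 2 stood above all the others. The log2 fold change of Dusp1 was -0.81 (SE 0.39, 95% interval -1.77 to 0.15, adjusted p = 0.193, edgeR), and -0.35 without Stag2WT replicate 2. Zfp36 read 45.7, 36.0 and 48.7 CPM in Stag2KO and 51.3, 56.6 and 50.4 CPM in Stag2WT. The groups did not overlap but came close, and the log2 fold change was -0.28 (SE 0.11, 95% interval -0.54 to -0.02, unadjusted p = 0.0391, adjusted p = 0.115, edgeR). Exons of Zfp36 overlap those of Gm44710, and exons of Dusp1 those of Ergic1 (log2 fold change 0.03, adjusted p = 0.816, edgeR), on the opposite strand.

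**Figure D2:**
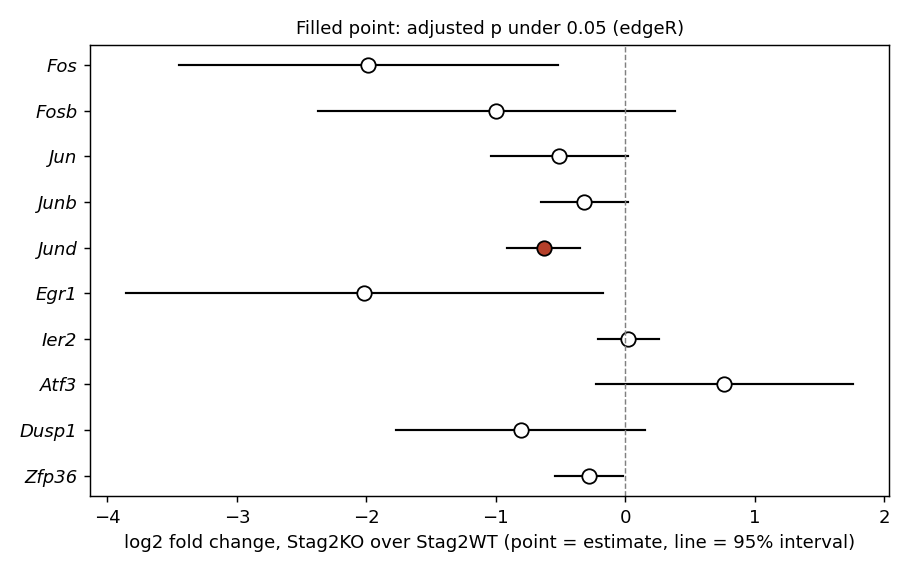
Log2 fold change, Stag2KO over Stag2WT, of each member with its 95% interval from edgeR; a filled point marks an adjusted p under 0.05. Only Jund is filled, at -0.63, while Fos and Egr1 have the lowest estimates, -1.99 and -2.01, and the widest intervals.

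Divided by exon length, levels spanned a wide range. Per kilobase of exon Ier2 was highest, with 23.9 ± 2.06 CPM in Stag2KO and 23.5 ± 2.43 CPM in Stag2WT, and Fosb lowest, with 0.056 ± 0.028 CPM in Stag2KO and 0.117 ± 0.0734 CPM in Stag2WT (SD, n = 3 each). Junb followed Ier2, with 15.6 in Stag2KO and 19.4 in Stag2WT, then Zfp36, with 12.5 in Stag2KO and 15.2 in Stag2WT, and Jund, with 8.56 in Stag2KO and 13.2 in Stag2WT (mean CPM per kilobase). In Stag2WT the next in order were Dusp1 (7.78), Fos (7.46), Jun (2.97), Egr1 (2.92) and Atf3 (1.39). In Stag2KO the lower part of the order was Dusp1 (4.44), Atf3 (2.36), Jun (2.09), Fos (1.87), Egr1 (0.719) and Fosb. In Stag2WT the ranges over libraries overlapped between Ier2 and Junb, Zfp36 and Jund, and Jund and Dusp1. Ranges of Dusp1 and Fos, Jun and Egr1, and Egr1 and Atf3 overlapped there too. Within every Stag2WT library, however, Ier2 stood above Junb, Zfp36 above Jund and Jund above Dusp1. Zfp36 and Jund were close in replicate 1 (14.8 and 14.7). The order of Dusp1 and Fos, of Jun and Egr1, and of Egr1 and Atf3 changed between Stag2WT libraries. Junb and Zfp36, Fos and Jun, and Atf3 and Fosb did not overlap in Stag2WT. In Stag2KO the ranges of Junb and Zfp36 overlapped, as did those of Atf3, Jun and Fos, and the other neighbours stood apart. Of the Jun genes, Junb was the highest and Jun the lowest in both groups.

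**Figure D3:**
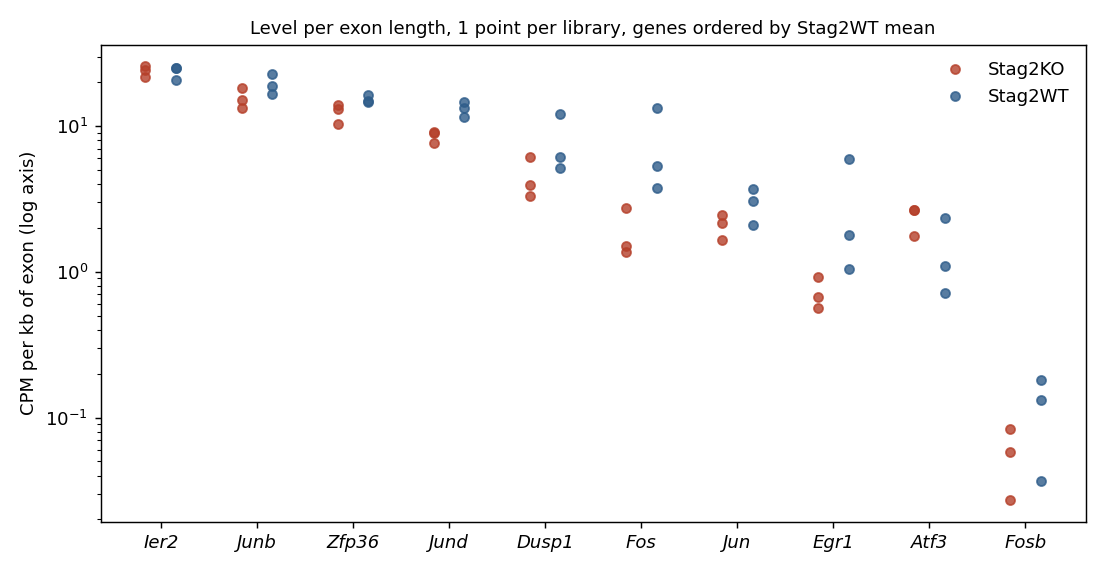
CPM per kilobase of exon on a log axis, 1 point per library, with Stag2KO left of Stag2WT for each member, ordered by the Stag2WT mean. Ier2 lies at the top with means of 23.9 in Stag2KO and 23.5 in Stag2WT, and Fosb at the bottom with 0.056 in Stag2KO and 0.117 in Stag2WT.

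Ratios within a library do not depend on how libraries are scaled. Reads of Fosb over Fos were 0.0357, 0.0684 and 0.0543 in Stag2KO and 0.0177, 0.0243 and 0.0446 in Stag2WT. Stag2KO replicate 1 fell inside the Stag2WT range, and the mean log2 ratio was 0.93 higher in Stag2KO (exact two-sided permutation test, p = 0.2, with 0.1 the smallest this design allows). Junb over Jun was 3.99, 4.59 and 4.21 in Stag2KO and 3.07, 3.46 and 5.07 in Stag2WT, and Jund over Jun 2.23, 2.4 and 1.90 in Stag2KO and 2.51, 1.88 and 2.87 in Stag2WT. Both overlapped between the groups (difference of mean log2 ratios, 0.17 and -0.14; exact two-sided permutation p = 0.5 each). Adjusted over the 3 ratios, each p was 0.5 (exact permutation test with Benjamini-Hochberg adjustment).

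Most members were more variable within groups than the median gene, though genes of like level were not set beside them. Once the group mean was taken from the log2 CPM, the median standard deviation of the members was 0.456, against 0.149 over all genes tested. Egr1 (0.934), Fosb (0.835) and Fos (0.77) varied most, and Ier2 (0.141) and Jund (0.161) least. Egr1 spanned 5.67-fold among the Stag2WT libraries but 1.63-fold among the Stag2KO libraries, and Fos 3.58-fold in Stag2WT and 2.01-fold in Stag2KO. Averaged over the members, Stag2KO replicate 3 lay 0.30 above its group mean and Stag2WT replicate 2 lay 0.46 above its own.

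Several members went up and down together among libraries of a group. Over the 6 libraries, group means removed, Pearson's r was 0.97 for Fos with Egr1, 0.97 for Fos with Dusp1, 0.97 for Junb with Dusp1 and 0.91 for Fos with Junb, with Spearman's rho of 1, 0.77, 0.94 and 0.83. These r values were 0.91, 0.91, 0.99 and 0.88 over the 5 libraries left without Stag2WT replicate 2. Of the 45 pairs of members, 26 had an r over 0.5 and 10 an r below 0. Atf3 ran otherwise, with r of -0.27 with Fos, -0.39 with Egr1 and -0.70 with Fosb. Jund followed Atf3 (r = 0.93) and not Fos (r = -0.02). Jun had an r of 0.79 with Jund, 0.60 with Atf3 and 0.59 with Fos. Without Stag2WT replicate 2 the r of Jun was 0.94 with Jund, 0.89 with Atf3 and 0.15 with Fos. These are descriptions of 6 libraries that share their depth, scaling and cell makeup, and no test was made.

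Of 680 other genes with at least 5 CPM that varied as much as the member mean, those most like it over the 6 libraries were Igkv3-10 (r = 0.91), Hspa8 (0.91), Iglc3 (0.90), Mid1 (0.90) and Il1b (0.89). Igkv3-10 and Iglc3 encode antibody light chain segments. Igkv3-10 read 12.9, 11.5 and 15.3 CPM in Stag2KO and 6.68, 24.2 and 6.47 CPM in Stag2WT, and Iglc3 read 14.1, 14.1 and 17.9 CPM in Stag2KO and 37.6, 166 and 36.5 CPM in Stag2WT. Both peaked in Stag2WT replicate 2, the library highest in Fos. Without that library the r of the 5 genes ran from 0.633 for Mid1 to 0.997 for Il1b. These 5 were picked for the highest r of 680 genes over only 6 libraries. High r values and a shared peak in Stag2WT replicate 2 therefore follow from the choice. Whether these genes vary with the members beyond that was not tested.

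**Figure D4:**
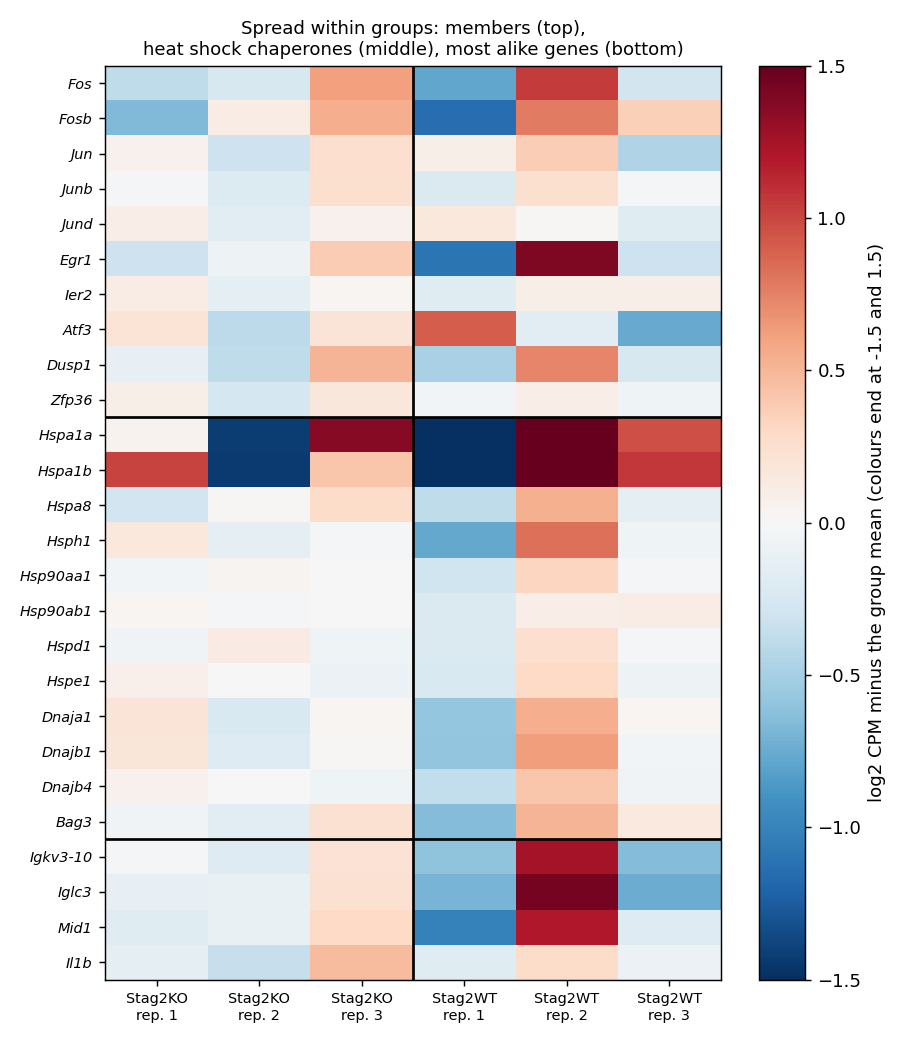
Log2 CPM minus the group mean for the members, the heat shock chaperones and the remaining genes most like the members (rows), with Stag2KO libraries left and Stag2WT libraries right (columns). Stag2WT replicate 2 is red for Fos (1.05), Egr1 (1.40) and Dusp1 (0.73) and for the chaperones, and Stag2WT replicate 1 is blue for Fos (-0.78) and red for Atf3 (0.91).

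The heat shock chaperones, which refold proteins and rise with cellular stress, had a summed level of 5157 to 5476 CPM in Stag2KO and 6467 to 10213 CPM in Stag2WT, where the sum was highest in replicate 2. All 12 tested had a fold change below 0, with a median log2 fold change of -0.88, and 4 passed the test, all lower in Stag2KO. These were Hsp90aa1 (-0.86, adjusted p = 0.00624), Hspd1 (-0.54, adjusted p = 0.0165), Hspe1 (-0.53, adjusted p = 0.0286) and Hspa8 (-1.04, adjusted p = 0.0387), all by edgeR. The inducible Hspa1b read 1.88, 0.3 and 1.23 CPM in Stag2KO and 1.72, 49.3 and 28.2 CPM in Stag2WT. The count called lower ranged from 1 without Stag2KO replicate 1 or Stag2KO replicate 3, and 2 without Stag2KO replicate 2 or Stag2WT replicate 3, to 12 without Stag2WT replicate 1. DESeq2 called 10 and edgeR without robust dispersion 9. Within groups, Pearson's r with the member mean was 0.76 for Hsp90aa1, 0.58 for Hspd1, 0.65 for Hspe1 and 0.91 for Hspa8. Without Stag2WT replicate 2 these were 0.08, -0.39, -0.48 and 0.71. The part of the chaperones' variation in the values of Fos, Egr1 and Dusp1 was not tested.

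The other genes of the same families and the genes around AP-1 were read in lists drawn up by role. Beside the count of each list, the chaperones included, stands the share over all genes tested, 10.5% called lower and 10.7% higher. Of 12 tested genes among the other Fos, Jun, Atf and Maf zipper factors, 2 rose, 3 fell and 7 were not called, with a median log2 fold change of 0.14. Maf, which serves macrophage identity, read 13.1, 7.81 and 12.2 CPM in Stag2KO and 45.9, 32.0 and 26.1 CPM in Stag2WT (log2 fold change -1.65, SE 0.27, adjusted p = 0.00989). Batf3, a factor of dendritic cells, was also lower (-1.18, adjusted p = 0.0257). Mafg, a small Maf that partners other zippers, rose to 169.5 ± 9.62 CPM in Stag2KO, against 126.9 ± 4.41 CPM in Stag2WT (0.42, adjusted p = 0.00429), and Atf7 rose too (0.38, adjusted p = 0.0307, all by edgeR). The number of these factors called lower was 1 when Stag2KO replicate 1 or 3 or Stag2WT replicate 1 or 3 was left out. The number called higher was 1 without any 1 library other than Stag2WT replicate 3.

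Of 36 other immediate early genes tested, 8 fell, none rose and 28 were not called. Their median log2 fold change was -0.22, and 27 were below 0. DESeq2 called 13 lower and none higher. Nr4a1, an orphan nuclear receptor induced by signals in myeloid and lymphoid cells, read 7.44, 5.53 and 8.46 CPM in Stag2KO and 22.9, 17.7 and 19.3 CPM in Stag2WT. All 3 Stag2KO libraries lay far below the Stag2WT libraries, with no excess in Stag2WT replicate 2 (log2 fold change -1.48, SE 0.17, adjusted p = 0.0017, edgeR). Arc, known from activated neurons, was scarce, with means of 0.176 ± 0.0395 CPM in Stag2KO and 0.58 ± 0.0681 CPM in Stag2WT (-1.72, adjusted p = 0.0105, edgeR). Zfp36l1, a paralog of Zfp36, read 15.9, 13.2 and 15.1 CPM in Stag2KO and 22.4, 26.0 and 19.8 CPM in Stag2WT (-0.63, adjusted p = 0.0125, edgeR). Klf4, a factor of monocytes, read 25.8, 24.2 and 26.7 CPM in Stag2KO and 50.6, 33.6 and 37.9 CPM in Stag2WT (-0.67, adjusted p = 0.0165, edgeR). The number called lower was 4 without Stag2KO replicate 2 or Stag2WT replicate 2 and 5 without Stag2WT replicate 3.

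Upstream of the members, 29 kinases and factors that carry signals to their promoters were tested, of which 5 rose, 1 fell and 23 were not called (median log2 fold change 0.07). Changes were small. Mapk14, the p38 kinase of the stress response, read 399.9, 369.9 and 373 CPM in Stag2KO and 313, 310.1 and 314 CPM in Stag2WT, with no overlap (0.28, adjusted p = 0.0153, edgeR). Map2k7, which activates JNK, rose as well (0.27, adjusted p = 0.0164), and so did Mkl1, a partner of serum response factor (0.52, adjusted p = 0.0279, both edgeR). Araf and Srf, the serum response factor gene itself, were the other two that rose, and are named after their values were seen. The number called lower was 2 without Stag2WT replicate 3 and 3 with DESeq2. The number called higher was 0 without Stag2KO replicate 1, 2 without Stag2KO replicate 3 or Stag2WT replicate 3, and 3 without Stag2WT replicate 1 or 2, while scaling by total gene reads alone gave 8.

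Among 14 brakes on MAP kinases, the Dusp, Sprouty and Spred genes other than Dusp1, 4 fell, none rose and 10 were not called, with a median log2 fold change of -0.28. DESeq2 and limma-voom each called 4 lower and none higher. Dusp5, a nuclear phosphatase of ERK, read 4.39, 4.71 and 7.33 CPM in Stag2KO and 15.3, 18.0 and 18.0 CPM in Stag2WT (-1.64, SE 0.20, adjusted p = 0.00192, edgeR). Dusp16, a phosphatase of JNK and p38, read 10.01, 12.5 and 11.8 CPM in Stag2KO and 29.5, 22.2 and 28.6 CPM in Stag2WT (-1.22, SE 0.14, adjusted p = 0.00148, edgeR). Dusp8 (-1.69, adjusted p = 0.00201) and Dusp10 (-0.78, adjusted p = 0.0127), which act on the same kinases, also fell by edgeR's test. In these 4 genes, picked by their calls, the groups stood apart, as they did in 43.5% of all genes tested. The groups overlapped in Dusp1.

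Transcripts with AU-rich elements, the kind that Zfp36 destabilizes, were tested where they passed the filter on low counts, which 6 of 12 did. Il1b, an inflammatory cytokine, read 1.71, 1.47 and 2.65 CPM in Stag2KO and 9.57, 13.2 and 10.2 CPM in Stag2WT (log2 fold change -2.49, SE 0.24, adjusted p = 0.000853, edgeR). Ccl4 also fell (-0.74, adjusted p = 0.0385), while Ccl3 (-0.29, adjusted p = 0.0744) and Tnf (-0.19, adjusted p = 0.629) were not called by edgeR. None of the 6 rose, and DESeq2 called 3 lower. Ccl4 lost its call without Stag2KO replicate 1 (adjusted p = 0.103), Stag2KO replicate 2 (0.108), Stag2WT replicate 1 (0.105) or Stag2WT replicate 3 (0.0785, all edgeR). The number called lower was 1 without Stag2KO replicate 2 or Stag2WT replicate 3. The integrated stress response, the pathway known to induce Atf3 through Atf4, had 8 genes tested, of which 2 fell, none rose and 6 were not called. Sesn2 (-0.76, adjusted p = 0.00509) and Ddit4 (-1.0, adjusted p = 0.0157) were the 2, with Asns at -0.55 (adjusted p = 0.0776) and Trib3 at -0.44 (adjusted p = 0.235, all by edgeR). Without Stag2WT replicate 2 the number called lower was 1, and DESeq2 called 3. With DESeq2 and limma-voom none of the other immediate early genes, MAP kinase brakes, AU-rich transcripts, chaperones or integrated stress response genes was called higher. At an unadjusted p under 0.05 edgeR had 2 higher among the other immediate early genes, 2 among the brakes and 0 in the other three lists.

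**Figure D5:**
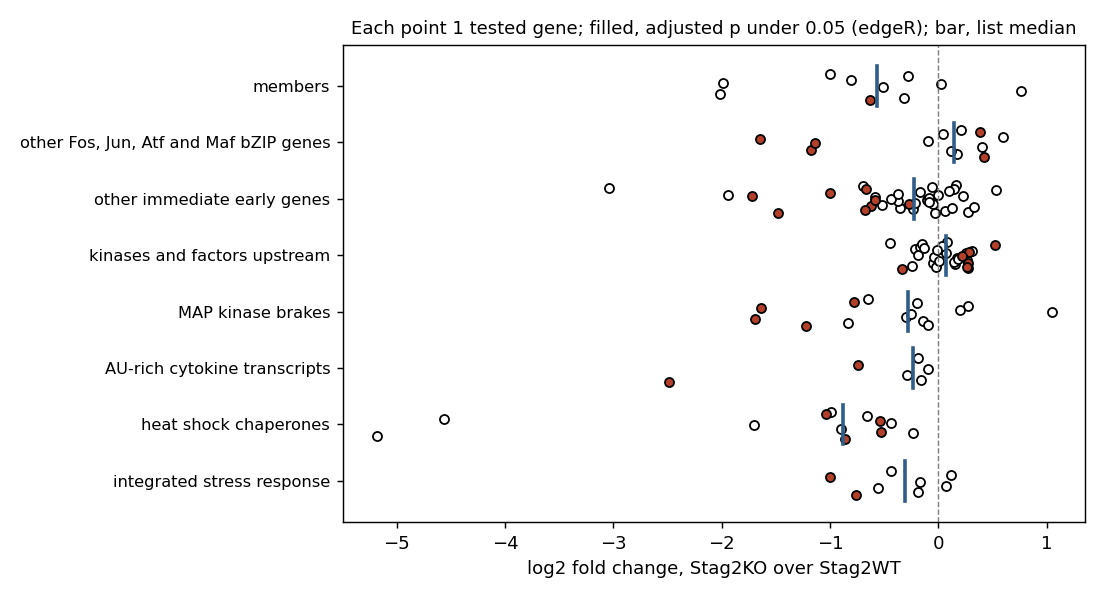
Log2 fold change, Stag2KO over Stag2WT, of every tested gene of each list (points; filled, adjusted p under 0.05 by edgeR), with the list median as a bar. The members' median lies at -0.57 (-0.33 without Stag2WT replicate 2) and that of the heat shock chaperones at -0.88, while the upstream kinases and factors centre on 0.07.

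Markers of several cell types differed between the groups as well. All 8 macrophage markers were called lower, with a summed level of 165 to 258 CPM in Stag2KO and 837 to 920 CPM in Stag2WT. All 7 B cell markers (67.3 to 75.6 CPM in Stag2KO, 160 to 248 CPM in Stag2WT), 3 of 4 T cell markers (3.77 to 8.54 CPM in Stag2KO, 13.9 to 28.0 CPM in Stag2WT), 3 of 5 monocyte markers (1202 to 1350 CPM in Stag2KO, 1453 to 1706 CPM in Stag2WT) and 4 of 6 erythroid markers (1995 to 2477 CPM in Stag2KO, 2651 to 4499 CPM in Stag2WT) were also lower. The monocyte marker Ccr2 went the other way and was not called (log2 fold change 0.77, adjusted p = 0.16, edgeR). Of 7 stromal markers 6 were lower and 1 higher. All 5 eosinophil markers were higher (3666 to 5667 CPM in Stag2KO, 1050 to 1591 CPM in Stag2WT), as were 4 of 10 neutrophil markers, 4 of 7 stem and progenitor markers, 1 of 4 megakaryocyte markers and 3 of 6 endothelial markers, with 1 endothelial marker lower. The neutrophil markers had the highest summed level of the marker lists, 17521 to 23702 CPM in Stag2KO and 15560 to 16640 CPM in Stag2WT. Those called were Mpo, Prtn3, Elane and Ctsg. Of the 10 neutrophil markers 6 were not called, and 3 had a log2 fold change below 0. No marker listed was at 0 in every library. Macrophages, monocytes and B cells are known to express immediate early genes, and the part of these cells in the level of Jund, Fos, Egr1 or any other member was not tested. In bulk RNA, fewer cells of a type and less RNA per cell cannot be told apart.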

How the data were processed

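The 6 RNA-seq libraries, 3 per group, came as a single table of gene counts, which the authors deposited without normalization. STAR 2.4, HTSeq 0.6.1, DESeq2 and build mm9 are named in the submitters' processing notes. No source used here names the kit or the strand setting. Counter totals that name no gene were left out; reads in no gene made up 8.81% to 12.8% of a library, ambiguous reads 2.02% to 2.2% and reads aligned to several places 23.4% to 28.6%. Groups follow the genotype label. Replicate numbers follow accession order and pair no samples. No 2 libraries of the same group agreed within sampling noise.

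Counts were fitted with edgeR 4.0.16 (R 4.3.3; filterByExpr, TMM, robust quasi-likelihood test, genotype only) over all genes, with p-values adjusted by Benjamini and Hochberg and a threshold of 0.05. DESeq2 1.42.0, limma-voom (limma 3.58.1), other scaling, other filters and each library left out were alternatives. Within-group values are log2 CPM with a prior count of 2. Exon lengths are unions over GENCODE vM21 coding transcripts and were used for levels alone. Promoters are RefSeq windows in GRCm38.p6, a build other than that of the counts. The test was checked on simulated counts with the same dispersion for every gene. That check does not show how the test behaves for genes as variable as Fos and Egr1. The members and lists were chosen with earlier results of these data known. Besides the members and Stag2, the genes named were the 4 of each list with the smallest p and the 5 most like the members' mean. Some genes that the rule would name are not reported here.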

Additional observations from a re-analysis of the deposited data

How the results depend on the processing

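Jund was called lower under all 7 other settings and whichever of the 6 libraries was left out. The median log2 fold change of the members ran from -0.71 without Stag2WT replicate 3 to -0.33 without Stag2WT replicate 2, against -0.57 with all libraries. The spread between replicates (0.27) was taken from these same libraries, so it cannot weigh shifts of this kind. The number of members called lower was 3 with DESeq2 and 2 without robust dispersion, and ranged from 1 to 3 when a library was left out, while the number called higher ranged from 0 to 1. Genes called in all numbered 3333, and 1967 to 2548 when a library was left out, where fewer samples give less power. Of the other named genes, the fold changes of Ier2 (-0.062 to 0.091), Tnf (-0.34 to 0.086) and Igkv3-10 (-0.22 to 1.01) changed sign with 1 library left out. None of these 3 was called with all libraries, and the cause was not tested. Depth limits Fosb most, at 3 to 24 reads a library. No paired analysis was possible because the labels carry no replicate numbers shared between the groups.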
